A study of Homo sapiens with 15 samples.

Results

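IGROV-CP20 cells that received Telmisartan and then cisplatin were compared with untreated IGROV-CP20 cells. IGROV-CP20 is a cisplatin-resistant human ovarian cancer line. The comparison contrasted 6 of the 15 libraries of the series, 3 per condition. The choice of genes, the scaling and the estimate of spread drew on all 15 libraries. The others came from cells with 50 µM cisplatin alone, or after 10 µM Tranilast or Amphotericin B. Of 47634 identifiers, 11113 genes had enough counts to be tested. In the treated condition, the cells were kept for 24 h with 10 µM Telmisartan and then for a further 24 h with 50 µM cisplatin. The untreated cells received neither drug, and neither a solvent control nor the time of their harvest is given in the sources used here. No library with Telmisartan alone was analysed here, so that the contributions of Telmisartan and of cisplatin to a difference from untreated cells cannot be told apart. The libraries are labelled as biological replicates, and the study describes its replicates as separate experiments.

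Cisplatin forms platinum adducts on DNA, which block replication and transcription, and tumor cells tolerate it by lowering its uptake, exporting it, binding it to thiols or repairing the adducts. Copper transporters carry part of the platinum across membranes: SLC31A1 (CTR1) brings copper into the cell, ATOX1 carries it in the cytosol, and ATP7A and ATP7B export it. Telmisartan is an antagonist of the angiotensin II type 1 receptor, used against hypertension, and is also known as a partial agonist of the nuclear receptor PPARγ. Gene expression was read with QuantSeq, a method that yields 1 fragment per polyadenylated message, taken close to its 3′ terminus, and a long transcript is therefore not counted more often than a short one at the same level.

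Total counts ran from 2691832 to 3392054 in the untreated libraries and from 2211259 to 2983548 in the treated ones, and a floor of 3 counts stood for 0.764 to 1.66 CPM (counts scaled to a common library total) across the 6 libraries. These floors cover counting error only, while the standard errors given below also draw on the spread between replicate libraries. The library labelled Telmisartan replicate 3 stood apart from its own group. Mitochondrial ribosomal RNA made up 3.61% of its counts, against 10.8% and 12.9% in replicates 1 and 2 and 1.79% to 2.20% in untreated cells, and its 20 most abundant genes held 14.7% of the counts against 24.5% and 27.8%. The root mean square difference of log2 CPM over all tested genes was 0.796 and 0.836 between replicate 3 and the other Telmisartan libraries, and 0.549 between those 2. The 3 libraries of cells with Tranilast and cisplatin lay nearer to replicate 3, at 0.410, 0.477 and 0.487, and so did cisplatin replicate 3, at 0.532. Whether this library carries the right label could not be settled from the files, and every treated value below counts it under its label. Counts are therefore also given with it, or with each of the 6 libraries in turn, left out. Of 15 markers of ovarian carcinoma and epithelium, 6 had no counts in any of the 6 libraries, PAX8, MUC16 and KRT7 among them, while KRT18 and EPCAM were read at 90.9, 84.02 and 92.4 and at 39.9, 43.4 and 41.5 in untreated cells, in CPM. Among 12 leukocyte markers, 6 were at 0 and only PTPRC was tested. The summed level of all 12 ran from 66.05 to 78.7 CPM in untreated and from 6.60 to 9.65 CPM in treated libraries.

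The treated cells held more transcripts of the DNA replication machinery and of the immediate early transcription factors, and their libraries more reads of mitochondrial ribosomal RNA. Fewer transcripts were read of endoplasmic reticulum (ER) chaperones, of amino acid stress genes, of integrins and matrix proteins, and of genes with long spans in the genome. These groups can share genes. Of the 11113 genes tested, 1423 (12.8%) were higher and 1761 (15.8%) lower than in untreated cells, together 3184 (28.7%), at an adjusted p under 0.05. This p came from the quasi-likelihood test of edgeR, with Benjamini-Hochberg adjustment over all genes tested, and each log2 fold change below is treated minus untreated, with its standard error (SE) and n = 3 libraries per condition. The increase was at least 1 on the log2 scale in 718 genes and at least 3 in 25, and the decrease at least 1 in 1144 genes and at least 3 in 46. All 3 treated libraries lay above all 3 untreated ones in 2043 genes (18.4% of those tested) and below them in 2918 (26.3%), which included 1193 of the higher and 1755 of the lower genes. The higher genes took up 19.25% of the counts in untreated and 36.35% in treated libraries, and the lower genes 20.71% and 8.40%. With 1 of the 6 libraries left out, 779 (without untreated replicate 3) to 1874 (without Telmisartan replicate 3) genes were higher, and 1187 (without Telmisartan replicate 1) to 2308 (without Telmisartan replicate 3) lower. When Telmisartan replicate 3 was left out, 1274 of the 1422 higher and 1577 of the 1761 lower genes that were again tested passed in the same direction. Scaling by library size alone moved the median log2 fold change of all genes from -0.03 to -0.27, and 23.4% instead of 44.7% of the calls were then increases.

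**Figure D1:**
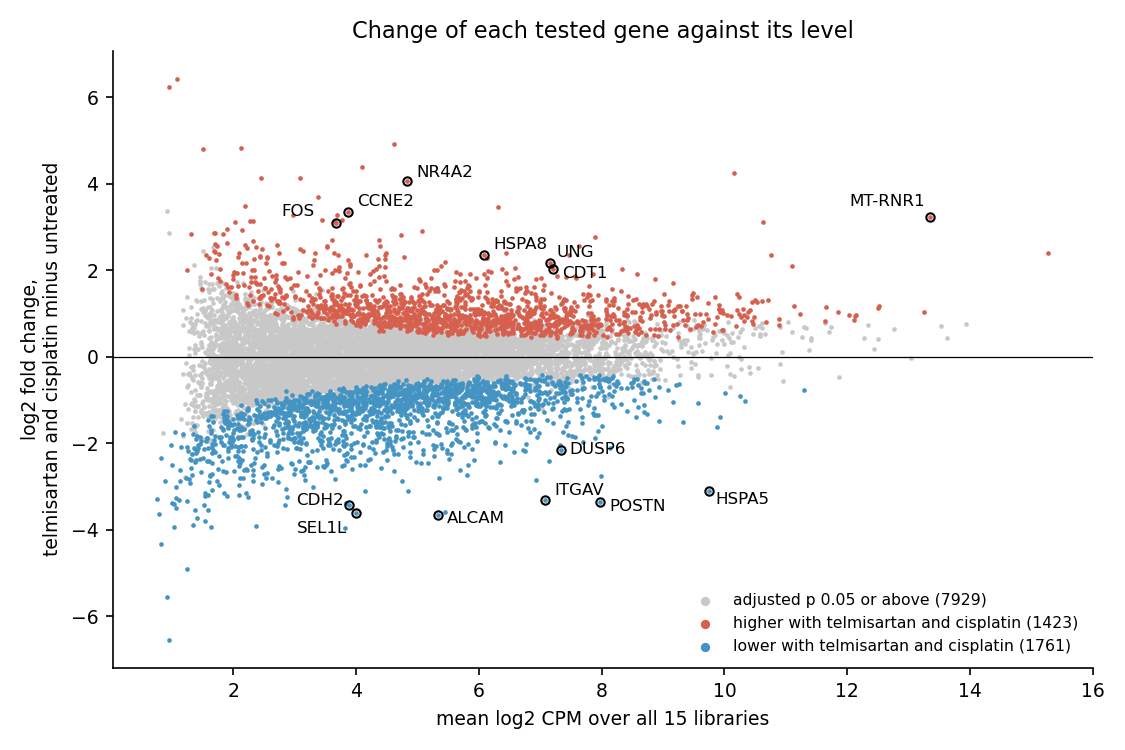
Log2 fold change of each of the 11113 tested genes (treated minus untreated, y axis) against its mean log2 CPM over all 15 libraries (x axis), with genes at an adjusted p under 0.05 in red (1423 higher) or blue (1761 lower) and 14 genes named in the text circled. Increases of more than 2 on the log2 scale reach the highest levels in mitochondrial RNA such as MT-RNR1 (3.23), and HSPA5 (-3.11) is the most abundant of the named genes that fell.

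The receptor that Telmisartan blocks was not detected in these cells. AGTR1, which encodes the angiotensin II type 1 receptor, and AGTR2 and MAS1 had 0 counts in all 6 libraries, which allows a level of up to 0.764 to 1.66 CPM. AGT, the angiotensinogen gene, had 15 counts in the 6 libraries together, and ACE, the angiotensin converting enzyme, had 21. Of 15 genes of this system, 5 were tested, with 1 higher and 2 lower. LNPEP, an aminopeptidase that also binds angiotensin IV, was read at 26.1, 25.6 and 30.8 CPM in untreated replicates 1 to 3 and at 7.14, 8.29 and 6.06 CPM with Telmisartan and cisplatin, without overlap (log2 fold change -1.96 ± 0.26, adjusted p = 8.23e-05). ATP6AP2, an accessory subunit of the vacuolar proton pump, fell in each treated library as well (log2 fold change -1.50 ± 0.24, adjusted p = 0.000253), and THOP1, a peptidase that cleaves angiotensins, rose (log2 fold change 0.80 ± 0.17, adjusted p = 0.00267). AGTRAP, which binds the type 1 receptor, and CTSD did not pass, at log2 fold changes of 0.21 and -0.54.

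The PPAR list gave no common direction: of 17 tested genes, 2 were higher and 4 lower, with a median log2 fold change of -0.24. PPARG itself had 42 counts in the 6 libraries and was not tested. FABP5, a fatty acid binding protein, was read at 14.3, 10.9 and 11.5 CPM untreated and 54.1, 46.4 and 27.8 CPM treated (log2 fold change 1.79 ± 0.26, adjusted p = 0.000146). CPT1A, which admits fatty acids to mitochondrial oxidation, moved the other way, from 181, 169.8 and 189 to 30.1, 54.1 and 38.5 CPM, with no overlap (log2 fold change -2.14 ± 0.28, adjusted p = 8.01e-05). The fatty acid transporter CD36 also fell (log2 fold change -2.24 ± 0.43, adjusted p = 0.00112). Of 16 fatty acid synthesis genes, 5 were lower and 1 was higher (3 lower and 0 higher without Telmisartan replicate 1 or 2, 7 and 3 without replicate 3), and the acyl-CoA synthetase ACSL3 stood between 316 and 346 CPM in untreated and between 61.3 and 90.3 CPM in treated libraries (log2 fold change -2.16 ± 0.20, adjusted p = 6.42e-06), while the desaturase SCD fell by 0.76 (adjusted p = 0.00366). Of 26 genes of cholesterol synthesis and uptake, 6 were higher, with MVD (log2 fold change 1.65 ± 0.25, adjusted p = 0.000165) and MSMO1 (log2 fold change 1.06 ± 0.17, adjusted p = 0.000258) in front, and 4 were lower. With 1 library left out, 5 to 8 were higher and 1 to 4 lower, with 1 lower without Telmisartan replicate 1 or 2 and without untreated replicate 2 or 3.

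Platinum and copper transporters changed in both directions. Of 27 genes listed, 17 were tested, 4 were higher (SCO2, ATOX1, SOD1 and CCS) and 5 lower (ABCB1, ABCC4, ATP7A, LRRC8D and SLC31A1), that is 23.5% and 29.4% of them against 12.8% and 15.8% of all genes. Without Telmisartan replicate 1, 1 was higher and 4 were lower, without replicate 2, 1 and 3, and without replicate 3, 7 and 5, while without untreated replicate 3, 2 were higher and 4 lower. SLC31A1, the copper importer, was read at 142, 148 and 165 CPM in untreated cells and at 50.01, 55.2 and 127 CPM in the treated ones, all below untreated, with replicate 3 near to it (log2 fold change -0.95 ± 0.28, adjusted p = 0.0163). Its log2 fold change was -1.53 without that library. ATP7A, the copper exporter, was low, at 7.33, 7.77 and 9.93 CPM untreated and 0, 3.31 and 2.48 CPM treated (log2 fold change -2.05 ± 0.54, adjusted p = 0.00953). ATP7B had 12 counts in all 6 libraries together (1, 3 and 3 untreated, 2, 0 and 3 treated), and a difference was not detectable at this depth. ATOX1, the copper chaperone, was read at 65.99, 49.8 and 47.1 CPM and 185, 213 and 56.98 CPM, so that replicate 3 lay within the untreated range and the increase (log2 fold change 1.47 ± 0.40, adjusted p = 0.0116) rested on the other 2 libraries. SOD1, the cytosolic superoxide dismutase, was read at 824, 954 and 369 CPM against 340.2, 353 and 330.4 CPM, with replicate 3 just above untreated (log2 fold change 1.07 ± 0.30, adjusted p = 0.0125). SCO2, which loads copper into cytochrome c oxidase, was above untreated in every treated library, at 109, 69.05 and 55.3 CPM against 29.6, 29.1 and 29.5 CPM (log2 fold change 1.39 ± 0.22, adjusted p = 0.000256), and CCS, the chaperone of SOD1, rose by less (log2 fold change 0.70 ± 0.24, adjusted p = 0.0344). ABCB1, the P-glycoprotein drug pump, fell from 35.7, 30.2 and 32.8 to 4.59, 8.84 and 5.23 CPM (log2 fold change -2.43 ± 0.36, adjusted p = 0.000154), and ABCC4, another efflux pump, fell too (log2 fold change -2.13 ± 0.55, adjusted p = 0.008). LRRC8D, a subunit of the anion channel that lets cisplatin in, fell in all 3 libraries (log2 fold change -1.33 ± 0.36, adjusted p = 0.0111). COX17 (0.63, adjusted p = 0.292), SCO1 (0.25), COX11 (0.43), COMMD1 (-0.0031), SLC47A1 (-0.01), ABCC5 (-0.22), LRRC8A (0.23) and TMEM205 (0.43, all log2 fold changes) did not pass. SLC31A1, ATOX1, SOD1 and CCS lost their call in 4 to 9 of the 21 other settings tried. ATOX1, ATP7A, SLC31A1, ABCB1, SCO2, SCO1, COX11, COMMD1, LRRC8A and TMEM205 overlap another expressed gene, and their reads are uncertain to that extent. The same holds for LNPEP, CD36, FOSB, MAFG, FEN1, NTHL1, PKMYT1, GTF2H3, GARS, KRT18, ACTA2, LAMB1, AHSA1, BAD, NFKBIB, RPL28, NDUFS3, ASTN2, MT-TC, MTND6P4, MTRNR2L2 and SQSTM1, while genes named outside the naming rule were not checked for overlap.

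Genes of the G1/S transition and of DNA replication rose together. Of 43 tested members, 35 were higher and 0 lower (12.8% and 15.8% of all genes), all 43 had a log2 fold change above 0, and the median was 1.25. CDT1, which loads the replicative helicase at origins, was read at 55.8, 49.2 and 43.5 CPM in untreated replicates 1 to 3 and at 189, 184 and 235 CPM in the treated ones (log2 fold change 2.04 ± 0.20, adjusted p = 6.69e-06). RRM2, a subunit of ribonucleotide reductase, went from 82.3, 77.1 and 62.4 to 274, 259 and 272 CPM (log2 fold change 1.86 ± 0.18, adjusted p = 6.69e-06), and the thymidine kinase gene TK1 from 31.9, 29.4 and 30.3 to 134, 101 and 115 CPM (log2 fold change 1.93 ± 0.20, adjusted p = 9.16e-06). In these 3 genes the treated libraries were close to each other and far above all untreated ones, replicate 3 included. The median deviation of the list from the untreated mean was 1.039, 1.108 and 1.360 (log2 CPM) in treated replicates 1, 2 and 3. With 1 library left out, 31 to 34 members were higher, and with scaling by library size alone, 23. Cyclin E2 had the highest increase in the list, CCNE2 (log2 fold change 3.34, adjusted p = 0.000167), and E2F1, PCNA and the helicase subunits MCM2 to MCM5 and MCM7 also passed.

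The letters TTTCGCGC of E2F sites, added to the search after the values had been seen, were in the 250 bases before the start of 3 of the 36 list members with an entry among RefSeq promoters (8.33%), MCM6, MCM7 and POLA2, against 0.893% of the 8620 tested genes and 0.469% of all 27305 promoters. MCM7 and POLA2 passed as increases and MCM6 (0.42) did not. The letters were in 13 of the 1056 higher genes with an entry (1.23%) and in 9 of the 1435 lower ones (0.627%). MCM7 is shown at chr7:100101398-100101647 (GRCh38.p14, minus strand), 5′ to 3′ on the strand of the gene, with these letters and CCAAT on either strand in capitals.
MCM7: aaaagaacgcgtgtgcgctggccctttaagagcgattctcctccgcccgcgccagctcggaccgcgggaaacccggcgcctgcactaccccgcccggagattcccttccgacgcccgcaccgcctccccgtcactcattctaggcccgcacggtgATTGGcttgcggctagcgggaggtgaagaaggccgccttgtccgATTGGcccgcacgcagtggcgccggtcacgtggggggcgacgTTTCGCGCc

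Genes of mitosis showed no common direction. Of 40 genes of G2 and mitosis, 5 were higher and 11 lower, with a median of 0.02, and 3 to 6 were higher and 7 to 11 lower with 1 library left out, the 7 without Telmisartan replicate 1 or 2. PKMYT1, the kinase that holds CDK1 inactive, rose from 34.4, 39.1 and 31.3 to 87.3, 85.6 and 90.3 CPM (log2 fold change 1.33 ± 0.20, adjusted p = 0.000149). HMMR (log2 fold change -1.02 ± 0.18, adjusted p = 0.000599) and DLGAP5 (log2 fold change -0.90 ± 0.16, adjusted p = 0.00076), which act at the spindle, fell, with no overlap between the groups. Of 16 replication-dependent histone genes with tested counts, 1 was higher and 4 were lower (2 lower without any 1 of the untreated libraries), and the linker histone HIST1H1C fell from 170.2, 159 and 134 to 69.9, 62.4 and 70.7 CPM (log2 fold change -1.18 ± 0.18, adjusted p = 0.000159). HIST1H1E fell as well (log2 fold change -1.50 ± 0.32, adjusted p = 0.00251) and HIST2H2BE rose from a low level (log2 fold change 1.88 ± 0.38, adjusted p = 0.00154).

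DNA repair genes that also act in replication were among the increases. UNG, the glycosylase that removes uracil from DNA, was read at 43.4, 46.9 and 49.9 CPM untreated and at 211, 197 and 219 CPM treated (log2 fold change 2.16 ± 0.21, adjusted p = 6.42e-06), and the 6 libraries fell into separate ranges. FEN1, the flap endonuclease, rose by 2.40 and the glycosylase NTHL1 by 1.59 on the log2 scale (adjusted p = 5.44e-05 and 7.24e-05). Of 26 base excision and mismatch repair genes, 9 were higher and 1, MSH3, was lower (6 to 8 higher with 1 library left out, the 6 without untreated replicate 3). Of 35 genes of the Fanconi pathway, homologous recombination and translesion synthesis, which handle platinum crosslinks, 10 were higher and 5 lower, and without Telmisartan replicate 1, 2 and 3 the counts were 8 and 2, 10 and 3, and 7 and 10. FANCB rose from 3.83, 3.45 and 2.04 to 12.2, 14.4 and 16.5 CPM (log2 fold change 2.23 ± 0.39, adjusted p = 0.000513), while RAD50, the clamp of the end-resecting complex, fell from 279, 299.5 and 278 to 92.9, 119 and 138 CPM (log2 fold change -1.29 ± 0.21, adjusted p = 0.000256), and RAD51B, whose gene spans 910440 bases, had between 0 and 1.11 CPM in treated libraries against 5.60 to 8.06 CPM. Nucleotide excision repair, which removes most platinum adducts, had 4 higher and 2 lower of 27 tested genes (3 and 1 without Telmisartan replicate 1 or 2 or any 1 untreated library, 6 and 3 without Telmisartan replicate 3), with RPA2 (log2 fold change 1.22 ± 0.22, adjusted p = 0.000675) and LIG1 (log2 fold change 0.81 ± 0.17, adjusted p = 0.0024) higher and the TFIIH subunit GTF2H3 lower (log2 fold change -0.88 ± 0.20, adjusted p = 0.00323). In this last list 14.8% were higher and 7.41% lower, against 12.8% and 15.8% of all genes.

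**Figure D2:**
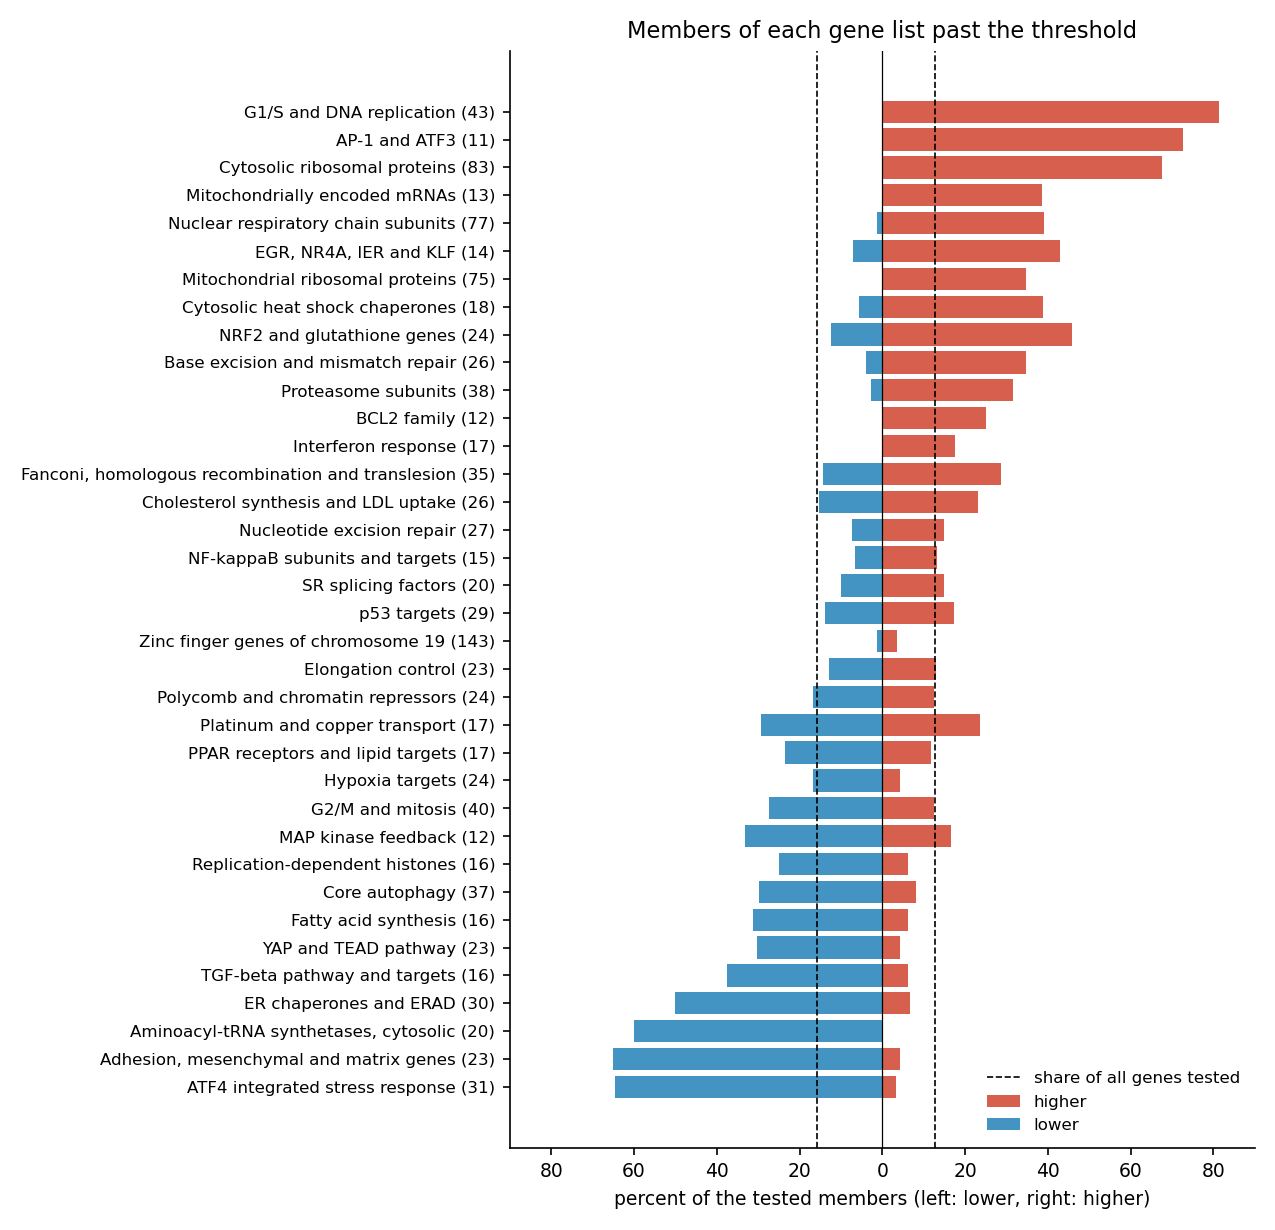
Share of the tested members of each gene list (number tested in parentheses) that were lower (blue, to the left) or higher (red, to the right) at an adjusted p under 0.05, in percent, with the share of all genes tested as dashed lines (15.8% lower, 12.8% higher). G1/S genes reach 81.4% higher and 0.0% lower, and the ATF4 list 64.5% lower and 3.23% higher.

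Immediate early genes, which are transcribed within minutes of many stimuli and have unstable messages, were higher in the treated cells. Of 11 tested genes of the AP-1 and ATF3 list, 8 were higher and 0 lower, with a median of 1.15. FOSB was read at 5.10, 5.18 and 4.33 CPM untreated and 22.96, 38.7 and 15.7 CPM treated (log2 fold change 2.36 ± 0.35, adjusted p = 0.000156), and JUN at 94.7, 81.7 and 91.6 and 378, 441 and 197 CPM (log2 fold change 1.92 ± 0.29, adjusted p = 0.000182). In both genes each treated library was above each untreated one and replicate 3 was the lowest of the treated. FOS itself was read at 5.10, 2.88 and 2.04 CPM untreated and 49.5, 34.8 and 4.13 CPM treated, so that replicate 3 lay within the untreated range and the rise (log2 fold change 3.09 ± 0.66, adjusted p = 0.00247) came from the other 2 libraries. With 1 library left out, 6 to 7 genes of the list were higher and 0 to 1 lower. MAFG rose by 1.15 on the log2 scale (adjusted p = 0.00194). ATF3, a stress-induced repressor, had a log2 fold change of 0.03 and did not pass. The orphan nuclear receptors of the NR4A group had the highest increases among these factors. NR4A2 was read at 2.55, 4.32 and 3.56 CPM in untreated and at 54.6, 54.1 and 67.4 CPM in treated libraries (log2 fold change 4.06 ± 0.37, adjusted p = 6.42e-06), and NR4A3 at 0, 0.863 and 0.255 and 10.2, 6.63 and 17.9 CPM (log2 fold change 4.83 ± 0.88, adjusted p = 0.000698), the latter at or below the floor of 3 counts in each untreated library, so that its fold change depends on the prior count. Of 14 tested genes of the EGR, NR4A, IER and KLF list, 6 were higher and 1, KLF6, was lower. IER5 rose from 44.3, 40.3 and 48.6 to 140.3, 146 and 109 CPM (log2 fold change 1.56 ± 0.18, adjusted p = 3.67e-05), while EGR1 had a log2 fold change of -0.85 (adjusted p = 0.168). RGS16, which shortens G protein signaling, was also among the 12 largest increases, at 4.78, 4.32 and 5.09 CPM against 43.9, 33.1 and 17.9 CPM (log2 fold change 2.70 ± 0.34, adjusted p = 6.15e-05). These 12, and the 12 largest decreases below, were taken among passing genes at a mean log2 CPM of at least 4 without overlap of the groups. Larger changes in genes of lower level are therefore left out of them.

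Negative regulators of MAP kinase signaling moved in opposite directions. Of 12 tested, 4 were lower and 2, DUSP1 and DUSP2, were higher. DUSP6, a phosphatase of ERK, was read at 461, 464 and 569 CPM untreated and 109.7, 104 and 123 CPM treated (log2 fold change -2.15 ± 0.31, adjusted p = 0.000123), with the 3 treated libraries within a narrow range. SPRY2 (log2 fold change -1.95 ± 0.29, adjusted p = 0.000165) and SPRY1 (log2 fold change -1.54 ± 0.24, adjusted p = 0.000221), both antagonists of receptor tyrosine kinase signaling, fell as well.

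The promoters of 2 of these genes were read from RefSeq on GRCh38.p14, as the 250 bases before the annotated start, 5′ to 3′ on the strand of the gene. The window was searched on both strands for TGACGTCA (the cAMP response element), TGANTCA (AP-1), TGATGNAA (the C/EBP and ATF response element), the TATA box spelled TATAAA, and the CArG box of serum response factor (CC and GG around 6 bases of A or T). The motif CCAAT, bound by NF-Y, was searched as well. TATAAA was in 11.1% of 27305 promoters in the table, CCAAT in 33.0%, TGANTCA in 6.60%, TGACGTCA in 1.77%, TGATGNAA in 3.19% and the CArG box in 1.14%. Capitals mark the matches, and the sequences are shown since FOS is the best known of the immediate early genes and RGS16 rose in each treated library. FOS lies at chr14:75278578-75278827 (plus strand) and RGS16 at chr1:182604390-182604639 (minus strand).
FOS: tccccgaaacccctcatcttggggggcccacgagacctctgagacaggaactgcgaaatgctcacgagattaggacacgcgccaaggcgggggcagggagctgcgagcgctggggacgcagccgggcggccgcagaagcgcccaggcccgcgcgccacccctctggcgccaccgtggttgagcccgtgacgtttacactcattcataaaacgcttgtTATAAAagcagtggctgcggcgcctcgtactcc
RGS16: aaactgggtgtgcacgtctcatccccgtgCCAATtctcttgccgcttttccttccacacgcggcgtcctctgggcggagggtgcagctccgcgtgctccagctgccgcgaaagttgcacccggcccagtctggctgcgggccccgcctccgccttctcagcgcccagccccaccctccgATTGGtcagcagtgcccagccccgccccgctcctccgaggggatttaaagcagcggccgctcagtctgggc

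The FOS window held a TATA box, and the RGS16 window 2 CCAAT matches. Among the 1056 higher genes with an entry in the table, TATAAA was in 6.25% of the windows and TGACGTCA in 3.79%, against 4.52% and 3.24% of the 8620 tested genes with an entry, and a match is a description of letters and not of a bound site.

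Chaperones of the ER, which fold secreted and membrane proteins, were lower in the treated cells. Of 30 tested members of the ER chaperone and degradation list, 15 were lower and 2, SDF2L1 and MANF, were higher, with a median of -0.92. HSPA5 (BiP), the main chaperone of the ER lumen, was read at 4524, 4139.7 and 4369.7 CPM in untreated and at 472, 484 and 554 CPM in treated libraries (log2 fold change -3.11 ± 0.27, adjusted p = 4.30e-06), so that the 3 treated libraries lay close together and far below the untreated ones. SEL1L, the scaffold of the ligase that disposes of misfolded proteins, fell from 92.1, 92.1 and 95.97 to 5.61, 6.63 and 9.63 CPM (log2 fold change -3.62 ± 0.38, adjusted p = 1.44e-05), and the membrane chaperone CANX from 334, 287 and 284 to 93.4, 104 and 69.4 CPM (log2 fold change -1.77 ± 0.22, adjusted p = 6.02e-05). CLGN, a relative of CANX, was among the 12 largest decreases as well (log2 fold change -3.11 ± 0.32, adjusted p = 1.06e-05). The sensors ATF6 (-2.32) and ERN1 (-2.40), the transcription factor XBP1 (-1.43) and the chaperone HSP90B1 (-2.11) passed as decreases, in log2 fold change. The list median in treated replicates 1, 2 and 3 was -1.098, -0.843 and -1.265 (log2 CPM minus the untreated mean), and with 1 library left out, 14 to 16 members were lower.

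The ER stress response element, spelled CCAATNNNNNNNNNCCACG, was looked for after these values had been seen, on both strands of the same window. It was in 7 of the 27 promoters of tested list members with an entry (25.9%), in 13 of the 8620 tested genes (0.151%), in 22 of all 27305 promoters (0.0806%), in 5 of the 1435 lower genes with an entry (0.348%) and in 0 of the 1056 higher ones. The 7 genes were HSPA5, HSP90B1, CANX, XBP1, ERO1B, CALR and CRELD2, of which the first 5 passed as decreases and CALR (-0.48) and CRELD2 (-0.64) did not. The first 3 of these promoters are shown, with this element, CCAAT and TGANTCA in capitals. They lie at chr9:125241344-125241593 (HSPA5, minus strand), chr12:103930160-103930409 (HSP90B1, plus strand) and chr5:179698679-179698928 (CANX, plus strand).
HSPA5: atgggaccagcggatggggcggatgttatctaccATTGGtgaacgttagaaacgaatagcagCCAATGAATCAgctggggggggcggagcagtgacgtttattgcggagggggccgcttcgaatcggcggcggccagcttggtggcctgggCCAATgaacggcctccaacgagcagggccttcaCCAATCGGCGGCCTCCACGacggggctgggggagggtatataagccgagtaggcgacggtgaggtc
HSP90B1: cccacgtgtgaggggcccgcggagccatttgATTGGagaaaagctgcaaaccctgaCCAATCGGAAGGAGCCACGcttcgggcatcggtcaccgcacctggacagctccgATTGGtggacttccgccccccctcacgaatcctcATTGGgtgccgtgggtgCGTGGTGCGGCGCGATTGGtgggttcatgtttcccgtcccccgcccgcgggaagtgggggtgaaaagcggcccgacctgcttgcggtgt
CANX: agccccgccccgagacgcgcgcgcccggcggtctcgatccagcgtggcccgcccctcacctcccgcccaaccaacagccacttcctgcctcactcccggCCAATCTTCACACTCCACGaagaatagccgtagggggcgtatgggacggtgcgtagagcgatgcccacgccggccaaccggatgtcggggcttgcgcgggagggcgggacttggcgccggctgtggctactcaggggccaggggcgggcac

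The element begins 66 bases before the start in HSPA5, at 194 and at 89 bases in HSP90B1 (the second on the opposite strand) and at 151 bases in CANX. The 3 windows also hold 4, 5 and 1 matches to CCAAT, those inside the element included.

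Targets of ATF4, the transcription factor of the integrated stress response, were lower too. Of 31 tested genes, 20 were lower and 1, PPP1R15A, was higher, with a median of -0.94. ASNS, asparagine synthetase, was read at 1025, 957 and 1066 CPM untreated and at 334, 296 and 460.2 CPM treated (log2 fold change -1.48 ± 0.24, adjusted p = 0.000258), and SLC38A2, an amino acid importer, at 624, 576 and 625 and 139.8, 128 and 286 CPM (log2 fold change -1.71 ± 0.25, adjusted p = 0.000155). PSAT1 of serine synthesis fell as well (log2 fold change -1.22 ± 0.20, adjusted p = 0.000277). The groups did not overlap in any of these genes, and replicate 3 was the nearest to untreated in each. The list median was -1.270, -1.264 and -0.424 in treated replicates 1, 2 and 3, and 10 members were lower without replicate 1, 10 without replicate 2, 26 without replicate 3, and 12 to 14 without 1 of the untreated libraries. The cytosolic aminoacyl-tRNA synthetases, many of which ATF4 also induces, had 12 lower and 0 higher of 20, with EPRS going from 497, 510.2 and 500.0 to 185, 178 and 229.6 CPM (log2 fold change -1.34 ± 0.21, adjusted p = 0.000194) and LARS (log2 fold change -1.13 ± 0.19, adjusted p = 0.000365) and GARS (log2 fold change -1.17 ± 0.20, adjusted p = 0.000372) close behind. ATF4 itself had a log2 fold change of -0.24 and did not pass.

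Integrins, laminins and other genes of adhesion and matrix had a median of -1.61, with 15 of 23 tested genes lower and 1, CDH1, higher (14 to 15 lower with 1 library left out). That is 65.2% lower and 4.35% higher, against 15.8% and 12.8% of all genes. Of protein-coding genes of 30 to 100 kb, 15.8% were lower, and of those of 100 to 300 kb, 43.1%. Whether this list fell beyond other genes of its span was not tested. ITGAV, the integrin αV subunit, was read at 695, 783 and 787 CPM untreated and at 78.1, 95.6 and 56.4 CPM treated (log2 fold change -3.31 ± 0.42, adjusted p = 6.17e-05). CDH2, N-cadherin, fell from 78.1, 69.1 and 81.97 to 10.2, 8.84 and 3.58 CPM (log2 fold change -3.43 ± 0.40, adjusted p = 3.67e-05), and the laminin chain LAMB1 from 33.8, 36.5 and 31.3 to 8.16, 7.18 and 3.85 CPM (log2 fold change -2.47 ± 0.32, adjusted p = 7.11e-05). Every treated library lay far below every untreated one in the 3 genes, and replicate 3 was the lowest. The list median was -1.387, -1.387 and -1.386 in treated replicates 1, 2 and 3, so that this list did not set replicate 3 apart. CDH1, E-cadherin, rose from a low level, 1.59, 2.59 and 2.55 to 6.63, 7.18 and 4.40 CPM (log2 fold change 1.36 ± 0.40, adjusted p = 0.0163), and FN1 had a log2 fold change of 0.18. The adhesion molecule ALCAM (log2 fold change -3.65 ± 0.44, adjusted p = 5.05e-05) headed the 12 largest decreases at a mean log2 CPM of at least 4, with 243, 223 and 209 CPM untreated and 20.9, 21.5 and 12.4 CPM treated. POSTN, periostin of the matrix, fell from 1516, 1465 and 1531 to 169.9, 171 and 97.7 CPM (log2 fold change -3.37 ± 0.45, adjusted p = 8.23e-05), and the collagen receptor DDR2 by 2.84 (adjusted p = 0.000149). The others of the 12 were FAM129A (-3.60), CLGN (-3.11), the endothelin converting enzyme ECE1 (-3.10), GLG1 (-2.87), the receptor ADGRG6 (-2.80), and APP (-2.73) and its relative APLP2 (-2.76), in log2 fold change, beside ITGAV and HSPA5.

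POSTN is shown, at chr13:37598769-37599018 (minus strand), as the decrease among the first 3 whose window held any of the motifs searched in FOS and RGS16. The windows of ALCAM and FAM129A (NIBAN1 in RefSeq) held none of them.
POSTN: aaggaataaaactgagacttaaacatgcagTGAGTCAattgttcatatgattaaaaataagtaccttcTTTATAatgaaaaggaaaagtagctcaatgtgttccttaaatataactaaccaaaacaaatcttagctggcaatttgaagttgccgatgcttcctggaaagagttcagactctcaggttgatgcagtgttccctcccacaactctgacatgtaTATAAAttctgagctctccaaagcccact

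The POSTN window held an AP-1 match and 2 TATA matches. TGANTCA was in 3.28% of the windows of lower genes and in 3.29% of those of all tested genes.

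Genes of TGF-β signaling, which controls many matrix genes, had 6 lower and 1 higher (ID2) of 16 (4 and 1, 3 and 0, and 9 and 1 without Telmisartan replicates 1, 2 and 3, and 3 or 4 lower without 1 of the untreated libraries). The receptor gene BMPR2 fell from 44.3, 46.6 and 50.1 to 8.16, 16.6 and 16.2 CPM (log2 fold change -1.76 ± 0.27, adjusted p = 0.000169). Of 23 genes of the YAP and TEAD pathway, 7 were lower and 1 was higher (5 to 9 lower with 1 library left out), with VGLL3 going from 419, 395 and 395 to 169.9, 169 and 214 CPM (log2 fold change -1.13 ± 0.19, adjusted p = 0.000451) and the Hippo scaffold WWC1 (log2 fold change -1.53 ± 0.28, adjusted p = 0.000759) and kinase STK3 (log2 fold change -1.96 ± 0.38, adjusted p = 0.00119) lower too. PTPRC, the phosphatase CD45 that marks leukocytes, was read in untreated cells at 70.1, 64.5 and 75.4 CPM and fell to 8.16, 3.87 and 7.43 CPM (log2 fold change -3.39 ± 0.46, adjusted p = 8.71e-05). The fibroblast marker COL1A1 rose from 6.38, 8.63 and 6.62 to 14.8, 14.9 and 30.6 CPM (log2 fold change 1.52 ± 0.35, adjusted p = 0.00422), while COL3A1 (-0.93) and ACTA2 (-0.01) did not pass. The summed level of the 11 fibroblast and endothelial markers was 41.2 to 46.3 CPM untreated and 44.3 to 65.4 CPM treated. The epithelial markers KRT18 and EPCAM moved apart, with log2 fold changes of 0.73 and -0.84 (adjusted p = 0.0104 and 0.00594), and their list summed to 149.8 to 157 CPM untreated and 149.2 to 221 CPM treated. KRT18 and CDH1 did not pass without Telmisartan replicate 1 or without replicate 2. All libraries came from cultures of the IGROV-CP20 line, and bulk counts do not show whether a level changed in all cells or in some.

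**Figure D3:**
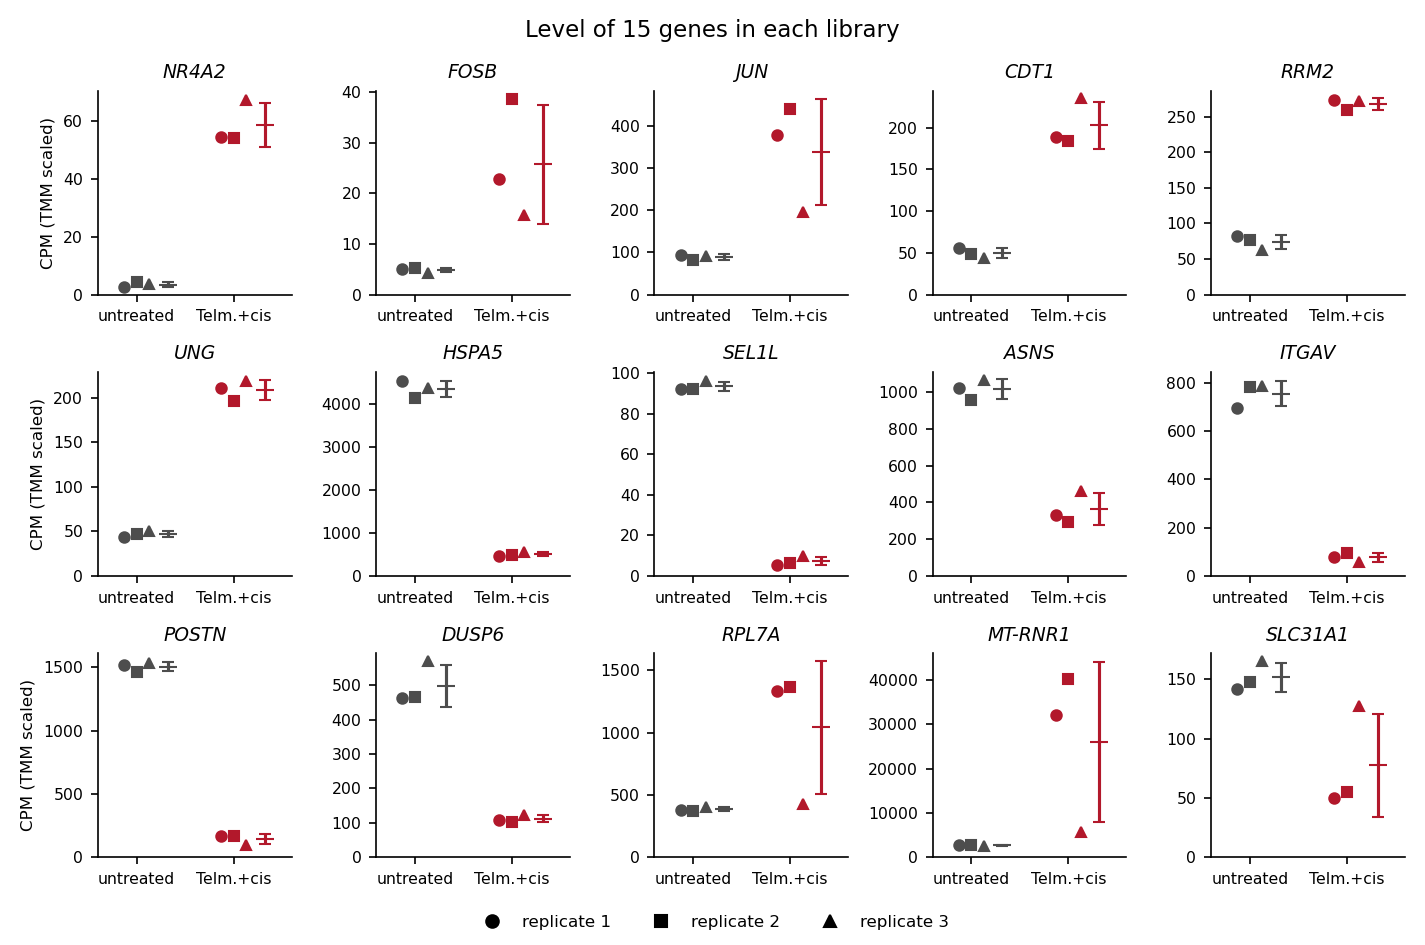
Level of 15 genes in each library, in CPM scaled by TMM factors (y axis, from 0), for untreated cells (grey) and cells with Telmisartan and cisplatin (red, "Telm.+cis"), with the symbol giving the replicate number and the bar the mean ± SD of 3 libraries. In HSPA5, RRM2 and UNG the treated libraries lie together, while in RPL7A and MT-RNR1 replicate 3 (triangle) lies near the untreated level.

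Oxidative stress and cytosolic chaperone genes rose more often than they fell, but little in replicate 3. The list medians in treated replicates 1, 2 and 3 were 0.678, 0.678 and 0.07 (NRF2) and 0.502, 0.58 and 0.13 (heat shock), in log2 CPM minus the untreated mean. Of 24 genes of NRF2 and glutathione, 11 were higher and 3 lower (45.8% and 12.5%, against 12.8% and 15.8% of all genes). Without Telmisartan replicates 1, 2 and 3, 6, 7 and 13 were higher, and without untreated replicates 1, 2 and 3, 9, 7 and 5. In a fit that had the mitochondrial ribosomal RNA percentage as a covariate, 7 were higher and 4 lower. FTL, the ferritin light chain, was read at 183, 179 and 185 CPM untreated and 704, 761 and 447 CPM treated (log2 fold change 1.80 ± 0.21, adjusted p = 3.67e-05), and heme oxygenase HMOX1 at 43.4, 50.1 and 47.4 and 96.4, 88.9 and 141 CPM (log2 fold change 1.22 ± 0.24, adjusted p = 0.00143). The malic enzyme ME1, also in this list, fell (log2 fold change -1.62 ± 0.31, adjusted p = 0.00109). Of 18 cytosolic heat shock chaperones, 7 were higher (38.9%) and 1, HSPA4, was lower (5.56%). With 1 library left out, 6 to 9 were higher, and with the covariate, 7 were higher and 3 lower. DNAJB4 (log2 fold change 2.24 ± 0.31, adjusted p = 9.17e-05), AHSA1 (log2 fold change 1.11 ± 0.18, adjusted p = 0.000337) and DNAJA1 (log2 fold change 1.08 ± 0.18, adjusted p = 0.000381), partners of HSP70 and HSP90, rose, and the constitutive HSPA8 rose by 2.35 (adjusted p = 0.000503). Of the 5 metallothioneins and metal regulators tested, 1 was lower, the zinc importer SLC39A10 (log2 fold change -1.21 ± 0.21, adjusted p = 0.000538), and MT2A (0.51) and the zinc exporter SLC30A1 (0.56) did not pass.

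Targets of p53, the transcription factor that responds to DNA damage, changed in both directions at shares near those of all genes. Of 29 tested, 5 were higher (17.2%, against 12.8% of all genes) and 4 lower (13.8%, against 15.8%), with a median of 0.20. The counts were 5 and 1, 5 and 2, and 6 and 7 without Telmisartan replicates 1, 2 and 3, and 3 and 1 without untreated replicate 3. SERTAD1 (log2 fold change 1.32 ± 0.25, adjusted p = 0.000957), TRIAP1 (log2 fold change 0.86 ± 0.18, adjusted p = 0.0021) and BAX (log2 fold change 0.86 ± 0.19, adjusted p = 0.00306), of which the last permeabilizes mitochondria, rose, whereas CYFIP2 fell to the floor. CDKN1A, the p21 inhibitor of cell cycle kinases, was read at 3.83, 3.74 and 6.11 CPM untreated and 3.57, 11.05 and 9.08 CPM treated, overlapping, with a log2 fold change of 0.79 (adjusted p = 0.136). MDM2 had -0.60 (adjusted p = 0.226). Of 12 BCL2 family genes, 3 were higher, BAX, BAD (log2 fold change 1.13 ± 0.32, adjusted p = 0.0146) and PMAIP1 (log2 fold change 0.67 ± 0.20, adjusted p = 0.0177), and 0 lower. Of 17 interferon response genes, 3 were higher and 0 lower (5 and 0, 4 and 0, and 2 and 2 without Telmisartan replicates 1, 2 and 3). ISG15, a ubiquitin-like modifier, rose from 42.7, 39.1 and 29.3 to 158, 166 and 135 CPM (log2 fold change 2.04 ± 0.19, adjusted p = 6.42e-06), clear of the untreated range in each library, while OAS3 and IFI6 (adjusted p = 0.00919 and 0.0105) were highest in replicate 3 and did not pass without it (adjusted p = 0.0848 and 0.1). Of 15 NF-κB genes, 2 were higher, NFKBIZ (log2 fold change 3.49 ± 0.64, adjusted p = 0.000793) and NFKBIB (log2 fold change 0.91 ± 0.19, adjusted p = 0.00227), and 1 was lower, the chemokine CXCL1, at 58.7, 56.4 and 62.1 CPM against 11.7, 12.2 and 10.7 CPM (log2 fold change -2.36 ± 0.36, adjusted p = 0.000168), with 3 lower without Telmisartan replicate 3. Of 24 hypoxia targets, 4 were lower, among them the collagen hydroxylases P4HA1 (log2 fold change -2.16 ± 0.28, adjusted p = 7.24e-05) and P4HA2 (log2 fold change -2.55 ± 0.50, adjusted p = 0.0012) and the kinase PDK1 (log2 fold change -1.33 ± 0.27, adjusted p = 0.00157), and 1, LDHA, was higher, with 8 lower and 3 higher without Telmisartan replicate 3 and 4 lower with any other library left out.

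Most ribosomal protein and respiratory chain genes lay above untreated cells in replicates 1 and 2, while the medians of both lists lay below it in replicate 3. Of 83 cytosolic ribosomal protein genes, 56 were higher and 0 lower, and of 77 nuclear respiratory chain genes, 30 were higher and 1 was lower. Without Telmisartan replicates 1, 2 and 3, 12, 14 and 80 ribosomal protein genes and 7, 8 and 62 respiratory chain genes were higher. Without untreated replicates 1, 2 and 3 the counts were 31, 26 and 17, and 15, 12 and 10. RPL7A was read at 382, 374 and 406 CPM untreated and at 1334, 1363 and 425 CPM treated (log2 fold change 1.42 ± 0.34, adjusted p = 0.00464), so that replicates 1 and 2 were more than 3 times the untreated level while replicate 3 lay just above it. COX6B1, a subunit of cytochrome c oxidase, showed the same pattern, at 223, 280.1 and 76.2 CPM against 67.3, 65.9 and 65.4 CPM (log2 fold change 1.53 ± 0.37, adjusted p = 0.00496). The median deviation of the ribosomal list from the untreated mean was 1.246, 1.350 and -0.044 (log2 CPM) in treated replicates 1, 2 and 3, and that of the respiratory chain list 1.036, 0.962 and -0.321. Proteasome subunits, of which 12 of 38 were higher and 1 lower (3, 6 and 24 higher without Telmisartan replicates 1, 2 and 3, and 7, 7 and 5 without untreated replicates 1, 2 and 3), also split, at 0.732, 0.649 and 0.010. RPSA (1.51), RPL28 (1.22), UQCR10 (1.41), NDUFS3 (0.78), PSMD12 (0.98), PSMD3 (0.73) and PSMB5 (0.74) had the smallest adjusted p of these lists, with RPL7A and COX6B1. Mitochondrial ribosomal proteins had 26 higher and 0 lower of 75 (9, 14 and 32 higher without Telmisartan replicates 1, 2 and 3, 18, 19 and 11 without untreated replicates 1, 2 and 3, and 13 higher and 4 lower with the covariate named below), with MRPL4 (log2 fold change 1.59 ± 0.23, adjusted p = 0.000128), MRPS26 (log2 fold change 0.93 ± 0.18, adjusted p = 0.0011) and MRPL18 (log2 fold change 0.98 ± 0.19, adjusted p = 0.00132). Ribosomal protein genes have many near-identical pseudogenes, and how reads shared with them were counted is not given in the sources used here. The share of mitochondrial ribosomal RNA was high in the same 2 libraries, and in a fit with this share as a covariate 2 ribosomal protein genes were higher and 3 lower, 1 respiratory chain gene was higher and 15 were lower, and 2 proteasome genes were higher and 4 lower. In the same fit, 36 G1/S genes were higher, and 18 ER, 15 adhesion and 11 ATF4 genes were lower. The share itself was higher in every treated than in every untreated library, so that this fit can also remove part of the difference between the conditions.

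**Figure D4:**
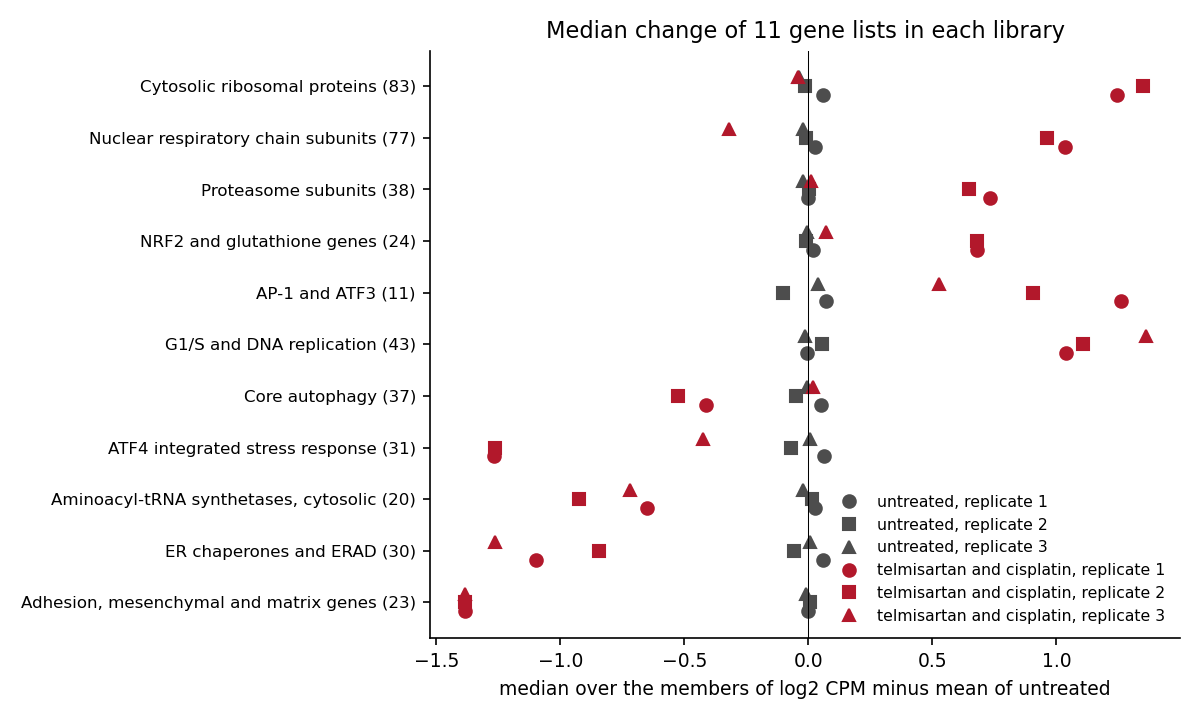
Median over the tested members of 11 gene lists (number tested in parentheses) of log2 CPM minus the mean of the 3 untreated libraries (x axis), for each untreated (grey) and treated (red) library. Treated replicate 3 (triangle) lies at -0.044 for ribosomal proteins, where replicates 1 and 2 lie at 1.25 and 1.35, and between -1.39 and -1.38 with both of them for adhesion genes.

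Transcripts of the mitochondrial genome made up 4 of the 12 largest increases at a mean log2 CPM of at least 4. MT-RNR1, the small mitochondrial ribosomal RNA, was read at 2750.3, 2854 and 2654 CPM untreated and at 32002, 40056 and 5675 CPM treated (log2 fold change 3.23 ± 0.65, adjusted p = 0.00148), with replicate 3 above untreated and far below the other 2. The transfer RNAs MT-TF (log2 fold change 4.25 ± 0.75, adjusted p = 0.000562), which adjoins it, MT-TC (log2 fold change 3.46 ± 0.65, adjusted p = 0.000952) and MT-TL1 (log2 fold change 3.11 ± 0.70, adjusted p = 0.00353) were the others, and the 12 also held the nuclear copies of mitochondrial sequence MTND6P4 (2.91), MTRNR2L2 (2.82) and MTND1P23 (2.57), whose reads may belong to the mitochondrial genes. Of 13 mitochondrial messenger RNAs, 5 were higher and 0 lower, MT-ND1 (log2 fold change 2.36 ± 0.42, adjusted p = 0.000647), MT-CO1 (log2 fold change 2.09 ± 0.38, adjusted p = 0.000735) and MT-ND6 (log2 fold change 2.04 ± 0.39, adjusted p = 0.00101) among them. RMRP, the RNA of the mitochondrial RNA processing ribonuclease, was read at 4.14, 2.88 and 1.53 CPM untreated and 82.7, 96.1 and 4.95 CPM treated (log2 fold change 4.40 ± 0.98, adjusted p = 0.00311). AL356488.2, which GENCODE 29 annotates as an intergenic noncoding RNA and which spans 427 bases, was read at 3.19, 4.32 and 1.78 and 101, 177 and 8.26 CPM (log2 fold change 4.92 ± 0.93, adjusted p = 0.000931). In both, replicate 3 lay just above the untreated range. The remaining gene of the 12, ENSG00000258486, is not in GENCODE 29 and had a log2 fold change of 2.77. QuantSeq is meant for polyadenylated messages, and how far reads of ribosomal RNA, transfer RNAs and RMRP follow their levels was not tested.

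Increases were more frequent among genes of short span and decreases among genes of long span. Among protein-coding genes under 10 kb in GENCODE 29, 30.1% of 1873 were higher and 5.07% lower, with a median log2 fold change of 0.46. From 10 to 30 kb, 17.2% of 2909 were higher and 6.88% lower, from 30 to 100 kb 4.64% of 3494 were higher and 15.8% lower, and from 100 to 300 kb 1.25% of 1524 were higher and 43.1% lower. Above 300 kb, 194 of 281 genes (69.0%) were lower and 0.356% higher, with a median of -1.57. Across the 10081 protein-coding genes, Spearman's coefficient between span and log2 fold change was -0.56, a correlation across genes, which share the libraries and are not independent replicates. The coefficient was below 0 in each treated library on its own, with -0.545, -0.514 and -0.401 in replicates 1, 2 and 3 against -0.054, -0.028 and 0.079 in the untreated ones. Replicate 3 differed in shape: its median for genes above 300 kb was -2.04, below the -1.25 of both other libraries, and for genes under 10 kb 0.18, against 0.52 and 0.48, and its median from 10 to 30 kb, 0.21, was not below that under 10 kb. Within the highest of 5 equal classes of expression, 46.7% of 569 genes under 10 kb were higher and 46.8% of 188 genes of 100 to 300 kb were lower. Without replicate 3, 160 of the genes above 300 kb were lower, and with scaling by library size alone, 215. Of the 12 largest decreases, 7 exceed 100 kb in span, whereas HSPA5 spans 6478 bases, and DUSP6, SPRY1, SPRY2 and CXCL1, which also fell, are under 10 kb as well.

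**Figure D5:**
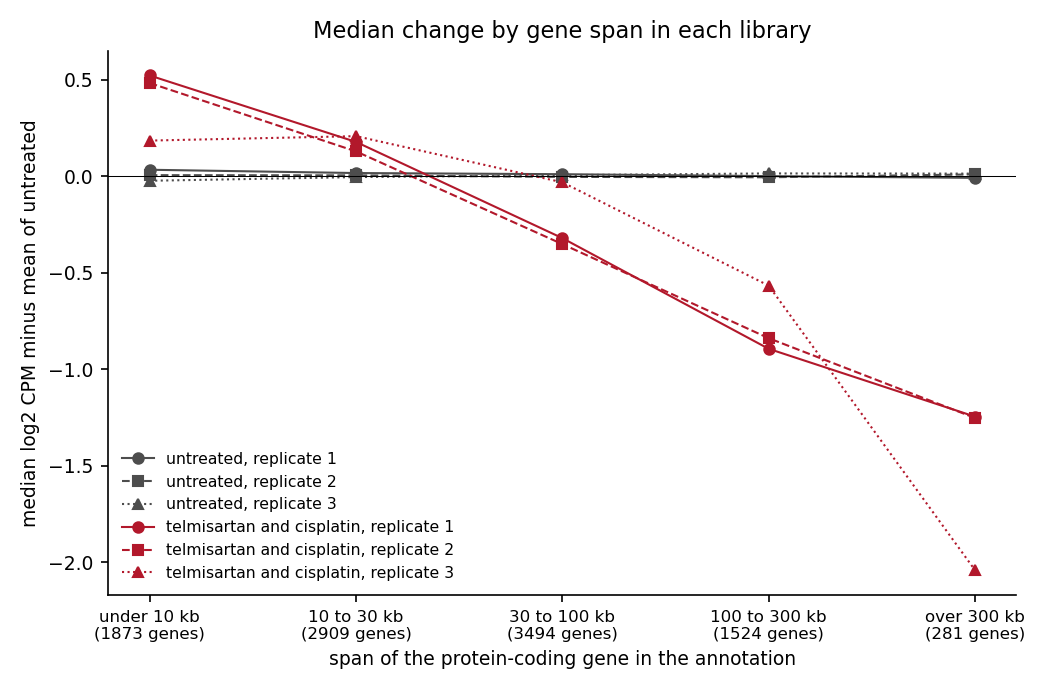
Median over protein-coding genes of log2 CPM minus the mean of the 3 untreated libraries (y axis) in 5 classes of gene span (x axis, number of genes in parentheses), 1 line per library. The untreated libraries (grey) stay near 0, and the treated ones (red) run from 0.52, 0.48 and 0.18 in the class under 10 kb to -1.25, -1.25 and -2.04 above 300 kb.

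A total of 9 genes fell to the floor of 3 counts in each treated library from at least 20 counts in each untreated one, and 0 did the reverse. LTBP1, which binds latent TGF-β in the matrix, had 31, 37 and 43 counts untreated and 3, 2 and 0 treated, at least 7.84-fold lower against a floor of 3 counts per library (adjusted p = 0.000438). The signaling adaptor GAB2 was at least 6.66-fold lower, ASTN2 at least 6.72-fold and the exchange factor ARHGEF10L at least 7.09-fold. The other 5 were RPS6KA2, CYFIP2, LAMP3, TTC28 and CHST11, at least 5.50-fold to 7.47-fold lower.

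Cisplatin alone was set beside these values, from 3 further libraries and against the same untreated ones, so that the 2 comparisons share their controls. In that comparison 2345 genes (21.1%) were higher and 2622 (23.6%) lower. The log2 fold change of HSPA5 was -2.95 with cisplatin alone and -3.11 with Telmisartan and cisplatin. For CDT1 the values were 2.03 and 2.04, for NR4A2 4.70 and 4.06, for ITGAV -3.20 and -3.31, for ASNS -1.21 and -1.48, and for SLC31A1 -0.44 and -0.95. When Telmisartan with cisplatin was tested against cisplatin alone by edgeR's quasi-likelihood test, 0 of 11113 genes passed (0.0%), the smallest adjusted p was 0.294, and 1150 had an unadjusted p under 0.05. The difference was -0.16 ± 0.25 for HSPA5, 0.01 ± 0.19 for CDT1, -0.64 ± 0.29 for NR4A2, 0.50 ± 0.19 for ISG15, -0.51 ± 0.28 for SLC31A1, 0.93 ± 0.48 for ABCB1 and -0.70 ± 0.18 for TRIAP1, in log2 fold change with its SE. The mitochondrial ribosomal RNA share ran from 3.41% to 13.7% in the cisplatin libraries as well, and a p above the threshold does not show that the levels were equal.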

How the data were processed

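The libraries were made with the QuantSeq 3′ kit from 100 ng RNA and read as single 75-base ends. The authors deposited raw counts per Ensembl gene, which the submitters' processing notes tie to STAR 2.3.0, HTSeq and hg19; the annotation release and the strand setting are not given in the sources used here. Names, spans and biotypes came from GENCODE 29 by Ensembl identifier (45776 of 47634 matched), and promoters from RefSeq on GRCh38.p14, for 8620 of the 11113 tested genes.

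Counts were tested with edgeR 4.0.16 in R 4.3.3 (quasi-likelihood test, TMM factors, genes kept by filterByExpr, Benjamini-Hochberg adjustment, threshold 0.05) in 1 fit of all 15 libraries with a term for each condition. CPM are TMM-scaled, and log2 CPM used a prior count of 2. The test was checked on simulated counts of 10782 genes. It found 41 of 100 genes changed by 1 on the log2 scale and 91 of 100 changed by 2, and it called 11 unchanged genes. The simulation changed few genes, as often up as down, and set no library apart, so these rates need not hold for the real comparison. The members and lists were chosen with earlier results of these data known. Named genes were the 12 largest changes in each direction at a mean log2 CPM over 4 without overlap of the groups, the 3 members of each list with the smallest adjusted p, all tested platinum, copper and angiotensin system genes, and 4 genes at the floor of 3 counts; further list members were named after their values were seen. Alternatives used limma 3.58.1 and DESeq2 1.42.0. List members without a matching name were not analysed here, and a few named genes are not reported here.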

Additional observations from a re-analysis of the deposited data

How the results depend on the processing

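The 1423 higher and 1761 lower genes became 627 and 2053 with scaling by library size alone, 2483 and 3035 with limma-voom and sample quality weights, and 649 and 944 at a threshold of 0.01. Leaving out 1 library gave 779 to 1874 higher and 1187 to 2308 lower genes, with both highest counts without Telmisartan replicate 3, 860 and 1187 without replicate 1, and 779 and 1203 without untreated replicate 3. RLE factors gave 1623 and 1653, upper quartile factors 1704 and 1591, and DESeq2 1800 and 1768, so that 49.5%, 51.7% and 50.4% of the calls were increases against 44.7%. Same-numbered Telmisartan and untreated libraries correlated by 0.096, 0.035 and 0.094 in their deviations from the group means, and differently numbered ones by -0.087 to 0.008. The labels do not say whether equal numbers were handled together. A replicate block gave 1441 and 1863 genes (1283 and 1460 with the 6 libraries alone). With the mitochondrial ribosomal RNA share as a covariate, which itself differed between the conditions, 1869 and 1973 genes passed. COX17 turned from 0.63 to -0.975 (adjusted p = 0.00262 by edgeR's quasi-likelihood test), and the cause was not tested. Of 146 named genes that passed, 117 kept their call and direction in all 21 settings, 15 lost it with library size alone, 17 with the covariate and 12 at 0.01. CCS lost it in 9 settings, SLC31A1 in 6, ATOX1, BAD, CDH1, IFI6, KRT18 and PMAIP1 in 5 and SOD1 in 4. The lists that moved most with the covariate were the ribosomal protein, respiratory chain and chromosome 19 zinc finger genes, of which 2, 1 and 35 were then higher instead of 56, 30 and 5. At 2211259 to 3392054 counts per library, a level of up to 3 counts could not be told from 0.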

Other observations

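Genes of protein turnover and of transcription that belong to none of the groups above were divided. Of 37 core autophagy genes, 3 were higher and 11 lower, with a median log2 fold change of -0.16. Without Telmisartan replicates 1, 2 and 3, 1, 1 and 5 were higher and 4, 7 and 13 lower, without untreated replicate 3, 2 and 6, and in a fit that had the mitochondrial ribosomal RNA percentage as a covariate, 8 and 7. LAMP2, a protein of the lysosomal membrane, was read at 59.9, 41.4 and 48.9 CPM in untreated cells and at 13.8, 11.6 and 12.9 CPM with Telmisartan and cisplatin (log2 fold change -1.96 ± 0.32, adjusted p = 0.000275), and UVRAG (log2 fold change -2.09 ± 0.57, adjusted p = 0.0114) and WIPI1 (log2 fold change -1.29 ± 0.40, adjusted p = 0.0216), which act in autophagosome formation and maturation, fell as well. SQSTM1 (p62), an autophagy receptor that is itself degraded, rose by 0.95 (adjusted p = 0.00128).

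Among 23 genes of elongation control, 3 were higher and 3 lower (7 and 1 with the covariate, and 1 to 3 and 1 to 4 with 1 library left out). HEXIM1, the inhibitor of the elongation kinase P-TEFb, rose from 55.5, 47.8 and 50.4 to 168, 199 and 104 CPM (log2 fold change 1.61 ± 0.22, adjusted p = 9.85e-05). Of 20 SR splicing factors, 3 were higher, among them SRSF2 (log2 fold change 1.01 ± 0.29, adjusted p = 0.0159), and 2 lower, TRA2B (log2 fold change -0.79 ± 0.16, adjusted p = 0.00167) and SRSF12, against 2 and 6 with the covariate. Of 24 Polycomb and repressor genes, 3 were higher and 4 lower (9 and 1 with the covariate, 1 and 1 without Telmisartan replicate 1), and JARID2, a cofactor of a Polycomb complex, fell the most (log2 fold change -1.91 ± 0.30, adjusted p = 0.00023). Of 143 zinc finger genes of chromosome 19, 5 were higher and 2 lower (6 and 13 without Telmisartan replicate 3, 35 and 0 with the covariate), below the 12.8% and 15.8% of all genes, with ZNF296 the highest (log2 fold change 1.98 ± 0.44, adjusted p = 0.00306). The only hepatocyte marker tested, ALB, did not pass (1.59, adjusted p = 0.188), and its list of 8 summed to 2.29 to 8.60 CPM untreated and 3.30 to 15.7 CPM treated.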
